A study of Mus musculus with 6 samples.

Results

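The mRNA decay factors examined here were 53 genes that mark, shorten, uncap or digest messenger RNA, out of 16627 genes in the deposited count table. They were taken by name from 6 roles: RNA-binding regulators of decay (10 genes), subunits of the CCR4-NOT deadenylase (10), the TOB adaptors with other deadenylases and poly(A)-binding protein (6), decapping factors and 5′-to-3′ exonucleases (10), the exosome and the nucleases of the DIS3 family (11), and nonsense-mediated decay (6). All 53 were present in the table and all 53 passed the filter on low counts. RNA came from inguinal white adipose tissue, the subcutaneous fat depot of the groin, of mice held at 4 °C for 6 hours. The 3 Celf1 AKO libraries came from mice lacking Celf1 in adipocytes, and the 3 Flox control libraries from littermates that carry floxed Celf1. Both groups were exposed to cold, so the comparison is between genotypes within cold-exposed fat, and the response to cold itself was not measured. The Cre driver, age and sex were not given in the sources used here. The study set out to learn what Celf1 does when this depot turns beige, that is, when heat-producing adipocytes appear in it.

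An mRNA usually begins to decay when its poly(A) tail is shortened by the PAN2-PAN3 and CCR4-NOT deadenylases. It is then either uncapped and digested from the 5′ end by XRN1 or digested from the 3′ end by the exosome. RNA-binding proteins decide which mRNAs enter this route: ZFP36 and its relatives bind AU-rich elements in 3′ untranslated regions and recruit CCR4-NOT, whereas ELAVL1 binds similar elements and tends to stabilise the mRNA. CELF1 belongs to the same layer of control and binds GU-rich elements, which are known to promote deadenylation. ZFP36-family and TOB/BTG genes are themselves known as quickly induced genes with short-lived mRNAs.

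Celf1 averaged 55.1 ± 6.97 CPM, a count scaled to the size of its library, in Celf1 AKO libraries and 128 ± 15.3 CPM in Flox control libraries (SD, n = 3 each). Its log2 fold change, Celf1 AKO over Flox control, was -1.21 with a standard error of 0.14 and an edgeR adjusted p of 0.122, with no overlap between the groups. Whole tissue was sequenced, non-adipocytes keep the gene by design, and their part in the remaining Celf1 signal was not tested. In such bulk samples fewer cells of a type and less RNA per cell cannot be told apart for any gene below.

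Library totals ran between 54835348 and 64979443 counts. Celf1 AKO replicate 3 stood apart from its group: across genes its log2 CPM correlated at 0.967 to 0.969 with the other Celf1 AKO libraries and at 0.975 to 0.980 with the 3 controls. Counts over all members are therefore given with and without it, and values without it for some of the named genes only. It was singled out from these same values, and leaving out a library that resembles the controls tends to widen group differences. Over all genes edgeR called 2 with all 6 libraries and 527 without it. Calls without it are therefore a description of its weight in the results. All 8 Schwann cell markers lay higher in every Celf1 AKO library than in any control, with a summed level of 549 to 796 CPM in Celf1 AKO libraries and 343 to 424 CPM in Flox control libraries. The 8 endothelial markers summed to 1057 to 1240 CPM in Celf1 AKO libraries and 611 to 883 CPM in Flox control libraries, and 6 of the 8 did not overlap. The 7 neutrophil markers tested summed to 42.7 to 147 CPM in Celf1 AKO libraries and 25.1 to 47.0 CPM in Flox control libraries, with Ngp at 0 in 2 controls. The 8 adipocyte markers were found in every library and summed to 26741 to 33434 CPM in Celf1 AKO libraries and 31172 to 34980 CPM in Flox control libraries. Of the 8, 6 had a negative log2 fold change. The mean log2(CPM + 0.5) of all 8 was 10.40, 10.84 and 10.77 in Celf1 AKO libraries, against 10.87, 11.06 and 10.85 in Flox control libraries. This mean was lower in every Celf1 AKO library than in any control. Lep had the log2 fold change of largest size, -1.71, with overlap between the groups. Next in size was Pnpla2, at -0.17. Adipoq was higher without overlap, at 2591 to 2790 CPM in Celf1 AKO libraries and 2443 to 2566 CPM in Flox control libraries. The mean without Lep was not computed. Celf1 AKO replicate 3 also held 1039 CPM of the skeletal muscle actin Acta1, against 23.1 to 75.2 CPM in the other 5 libraries, and an erythrocyte marker sum of 1272 CPM, against 351 to 598 CPM. Acta1 was the only 1 of the 6 listed skeletal muscle markers present in the count table. The 6 epithelial markers tested all had positive log2 fold changes, and their sum was 29.7, 14.2 and 9.17 CPM in Celf1 AKO libraries, against 6.71, 9.14 and 5.25 CPM in Flox control libraries. The part of these markers in the results was not tested.

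Sequences of the kinds that ZFP36 and CELF1 bind were searched in the 3′ untranslated regions of the members. AU-rich sites are printed for the ZFP36 family only, because it lies at the centre of the results. GU-rich sites are printed for 2 further members. In GENCODE M21 (GRCm38), 42 of the 52 members with an annotated 3′ untranslated region held the AU-rich pentamer ATTTA there (80.8%, against 67.2% of 13975 genes), and 8 held the nonamer TTATTTATT (15.4%, against 7.44%). Each nonamer contains the pentamer. The members' untranslated regions were longer, with a median of 1246 bases against 1015 over all genes, and no allowance for length was made in these shares. Among genes whose untranslated region was within 20% of the same length, 4.34% held the nonamer for Zfp36, 8.74% for Zfp36l1 and 8.67% for Zfp36l2. For the other 5 members that held it, whose regions are longer, this share ran between 16.9% (Edc3) and 26.9% (Rc3h1). Elavl1 held the most nonamers, 8, some of them overlapping, against 1 in each ZFP36-family gene. One nonamer site of each ZFP36-family gene follows, on the sense strand, with the nonamer in capitals. They lie at chr7:28376951-28376979, chr12:80108167-80108195 and chr17:84184914-84184942, all on the minus strand.
Zfp36: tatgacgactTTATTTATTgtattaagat
Zfp36l1: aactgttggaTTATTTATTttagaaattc
Zfp36l2: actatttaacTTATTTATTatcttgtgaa
A GU-rich element of the kind CELF1 binds, TGTTTGTTTGT, was found in 3 members (5.77%, against 3.78% of all genes), namely Cnot6l, Dcp2 and Upf1. The GU repeat TGTGTGTGTGT was also found in 3 members (5.77%), against 7.61% of all genes. Among genes with an untranslated region of like length, 19.4% held the printed element for Cnot6l and 2.20% for Upf1. The Cnot6l and Upf1 sites, at chr5:96076093-96076121 and chr8:70331959-70331987 on the minus strand, read as follows, with the element in capitals.
Cnot6l: taaaatggcTGTTTGTTTGTtgttttggt
Upf1: tttttttttTGTTTGTTTGTttggttttt
These motifs were searched on the sense strand after the expression values were known. A match describes the letters of the annotated transcript and was not tested as a binding site.

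No decay factor passed the threshold of an adjusted p under 0.05 over the 16366 genes tested by edgeR with all 6 libraries, where 0.0122% of all genes did (2 genes). Of the 53 members, 25 had a positive and 28 a negative log2 fold change, and their median was -0.019, beside -0.018 for all genes tested. At an unadjusted p under 0.05, 5 members passed, 3 of them higher and 2 lower in Celf1 AKO (9.43% of members, against 12.9% of all genes, 6.75% higher and 6.17% lower). The 3 Celf1 AKO libraries did not overlap the 3 controls for 8 members, 2 higher and 6 lower (15.1%, against 17.3% of all genes, 7.81% higher and 9.51% lower). Over both directions, the shares of 9.43% and 15.1% were no larger than the background. The 6 lower members without overlap were a share of the 53 slightly above, and close to, the 9.51% of all genes. This share is not read as a result about the members. The other shares by direction were smaller than those of all genes. Counts per member and library ran between 386 and 46223.

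Levels of most decay factors differed little between libraries. For 50 of the 53 members the absolute log2 fold change was under 0.5 (94.3%, against 78.9% of all genes), and the same number had a 95% interval lying wholly within a 2-fold change in either direction (94.3%, against 63.1%). The 3 exceptions to both were Zfp36, Zfp36l1 and Tob1. Across all 6 libraries the highest CPM of a member was 11.8 times its lowest for Zfp36, 3.17 times for Zfp36l1 and 3.06 times for Tob1. Over the other 50 members this ratio ran between 1.06 for Pan3 and 1.81 for Tia1. Its median was 1.33 over the members, beside 1.72 over all genes tested. The members were also more highly expressed. Their median level per gene length was 8.52 FPKM in Celf1 AKO libraries, against 3.90 FPKM over all genes tested. No allowance for level was made in these comparisons.

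**Figure D1:**
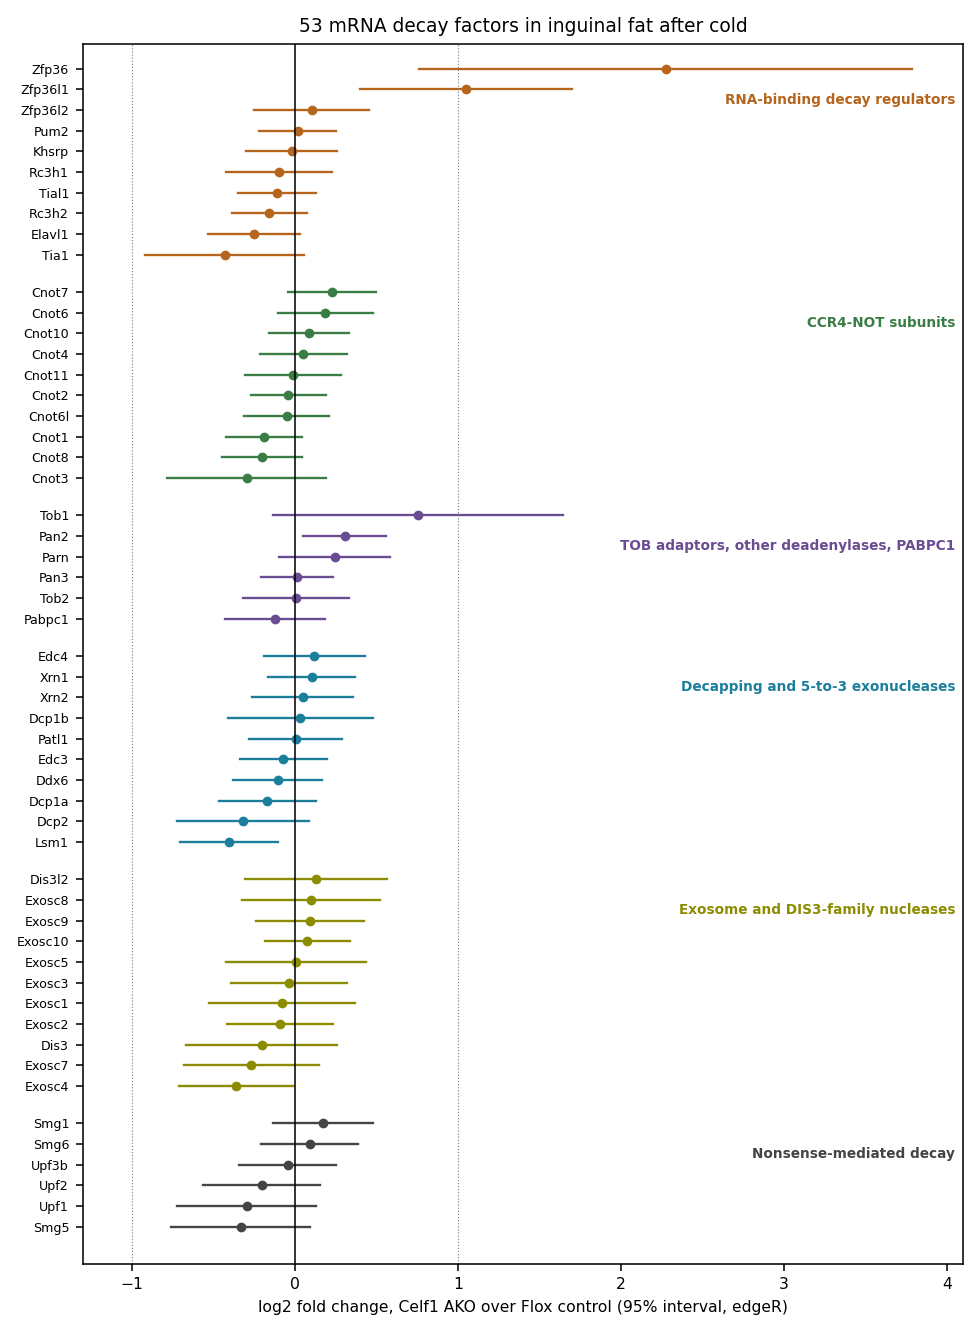
Log2 fold change of each decay factor, Celf1 AKO over Flox control (x axis), with its 95% interval from edgeR, 1 row per gene and 1 colour per role; n = 3 libraries a group, and dotted lines mark a 2-fold change. Zfp36 (2.28) and Zfp36l1 (1.05) lie farthest to the right, and the intervals of 50 of the 53 genes stay between the dotted lines.

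The strongest differences in size lay among the RNA-binding regulators, in the ZFP36 family. Zfp36 (ENSMUSG00000044786; GRCm38 chromosome 7, 28376784 to 28380253, minus strand) encodes tristetraprolin, which binds AU-rich elements and brings the mRNA to CCR4-NOT. It was measured at 819, 757 and 153 CPM in the Celf1 AKO libraries, against 197, 89.9 and 69.7 CPM in the Flox control libraries. Celf1 AKO replicates 1 and 2 were far above every control, whereas replicate 3 lay below Flox control replicate 1, so the groups overlapped. The mean was 576 ± 368 CPM in Celf1 AKO libraries and 119 ± 68.6 CPM in Flox control libraries (SD, n = 3 each), 4.84 times as much. The log2 fold change was 2.28 with a standard error of 0.65, which edgeR did not call at an adjusted p of 0.285. Without Celf1 AKO replicate 3 it was 2.72 at an adjusted p of 0.0347, and DESeq2 with all libraries gave an adjusted p of 0.0487.

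Zfp36l1 (ENSMUSG00000021127; GRCm38 chromosome 12, 80107754 to 80113013, minus strand) is a paralog with the same tandem zinc fingers. It had 85.1, 63.8 and 37.9 CPM in Celf1 AKO libraries, against 35.6, 26.8 and 27.8 CPM in Flox control libraries. Here every Celf1 AKO library lay above every control, although replicate 3 only by a small margin over Flox control replicate 1. The log2 fold change was 1.05 with a standard error of 0.28 and an edgeR adjusted p of 0.261. It was 1.31 at an adjusted p of 0.0259 without Celf1 AKO replicate 3, and DESeq2 gave an adjusted p of 0.0204. With the annotated antisense gene Gm26669 sharing exon positions, reads of Zfp36l1 could not be separated by strand here.

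Zfp36l2 (ENSMUSG00000045817; GRCm38 chromosome 17, 84183931 to 84187947, minus strand), the third member of the family, did not share these values. It had 152, 113 and 105 CPM in Celf1 AKO libraries, against 116, 112 and 116 CPM in Flox control libraries. Celf1 AKO replicate 1 lay above every control and replicate 3 below every control, and the log2 fold change was 0.10 with a 95% interval of -0.25 to 0.46. Its sign turned without Celf1 AKO replicate 1, to -0.037.

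On the deposited FPKM scale, which divides fragments by gene length and library size, the family's composition differed between libraries. The 3 genes summed to 529, 449 and 133 FPKM in Celf1 AKO libraries, against 145, 94.7 and 83.6 FPKM in Flox control libraries. Zfp36 made up 86.5%, 88.8% and 66.8% of that sum in Celf1 AKO libraries, against 71.1%, 55.2% and 48.0% in Flox control libraries. Zfp36l2 made up 8.14%, 6.75% and 23.2% in Celf1 AKO libraries, against 21.2%, 34.9% and 40.6% in Flox control libraries. Zfp36 was thus the most abundant of the 3 in every library, and the share of Zfp36l2 overlapped between the groups through Celf1 AKO replicate 3 and Flox control replicate 1.

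The stabilising AU-rich element binder Elavl1 had 75.2, 71.4 and 89.7 CPM in Celf1 AKO libraries, against 98.4, 87.3 and 95.3 CPM in Flox control libraries. The groups overlapped through Celf1 AKO replicate 3, and the log2 fold change was -0.25 with a standard error of 0.12 and an edgeR adjusted p of 0.428. Elavl1 shares exon positions with Ccl25 on the opposite strand. The other regulators were named after their values were seen. Khsrp, which also promotes decay through AU-rich elements, had a log2 fold change of -0.019, the translational repressor Pum2 0.018, and the roquin genes Rc3h1 and Rc3h2, whose proteins bind stem-loops, -0.096 and -0.16. Rc3h2 did not overlap, at 42.2 to 47.2 CPM in Celf1 AKO libraries and 48.4 to 51.8 CPM in Flox control libraries. Of the stress granule proteins, Tia1 had a log2 fold change of -0.43 with a 95% interval of -0.92 to 0.06, and Tial1 had -0.11. Without Celf1 AKO replicate 3, Tia1 stood at -0.66 with an edgeR adjusted p of 0.0717.

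**Figure D2:**
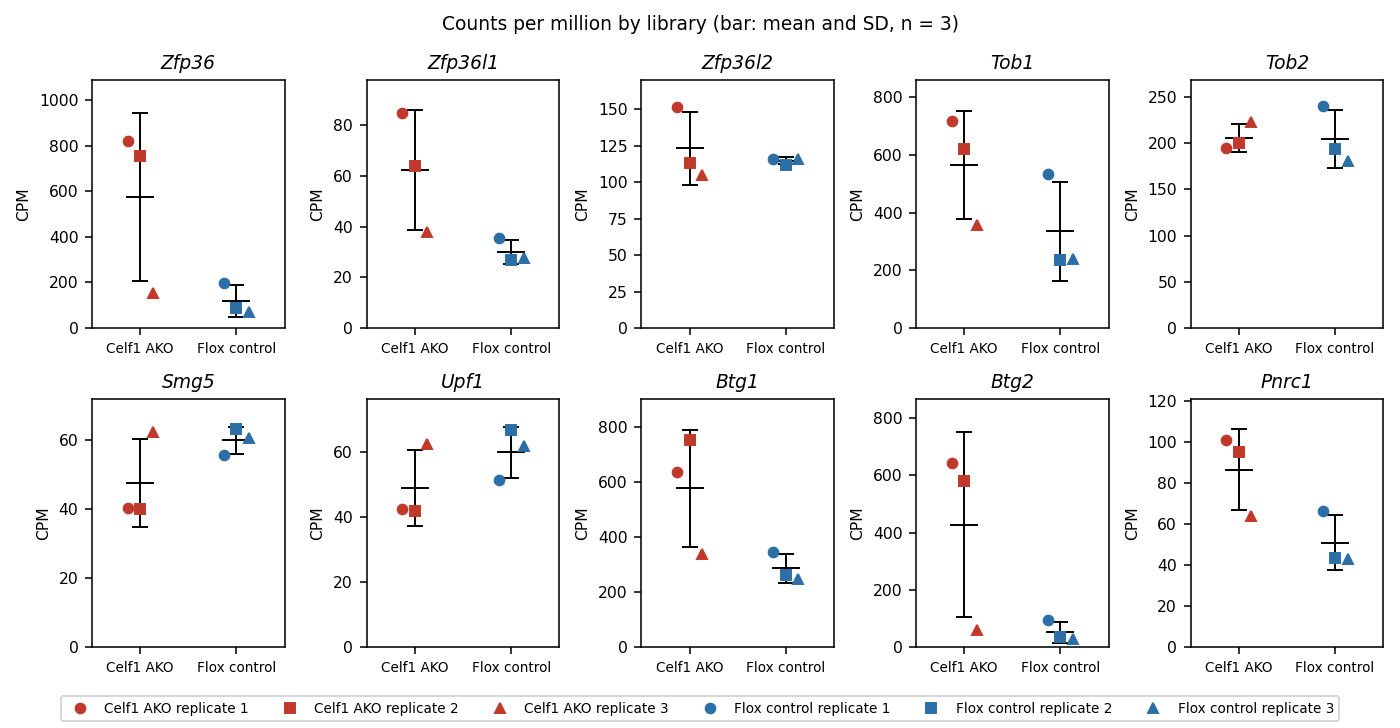
CPM (y axis, from 0) of 5 RNA decay regulators and adaptors, 2 nonsense-mediated decay factors and 3 related genes in each library, with Celf1 AKO left and Flox control right; marker shape gives the replicate number, and bars give the mean and SD of 3 libraries. Celf1 AKO replicate 3 (red triangle) lies near the controls for Zfp36, at 153 CPM, and for Smg5, at 62.3 CPM, away from replicates 1 and 2.

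The adaptors came next. TOB1 and TOB2 join poly(A)-binding protein to the CCR4-NOT nucleases. Tob1 (ENSMUSG00000037573; GRCm38 chromosome 11, 94211454 to 94215495, plus strand) had 717, 622 and 358 CPM in Celf1 AKO libraries, against 533, 234 and 238 CPM in Flox control libraries. Flox control replicate 1 lay above Celf1 AKO replicate 3, and the log2 fold change of 0.75 (standard error 0.38) had an edgeR adjusted p of 0.45, with 0.176 when Celf1 AKO replicate 3 was left out. Tob2 was at 194, 200 and 223 CPM in Celf1 AKO libraries, against 240, 193 and 181 CPM in Flox control libraries, a log2 fold change of 0.0068 with a 95% interval of -0.32 to 0.33.

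Pan2, the nuclease of the PAN2-PAN3 complex, had 35.0, 35.9 and 31.1 CPM in Celf1 AKO libraries, against 28.9, 27.3 and 26.4 CPM in Flox control libraries. No library crossed between the groups, but the difference was small, with a log2 fold change of 0.31 (standard error 0.11) and an edgeR adjusted p of 0.332. Its partner Pan3 was the most even member, at 36.2 to 38.5 CPM in Celf1 AKO libraries and 36.7 to 37.2 CPM in Flox control libraries. Parn, another poly(A) ribonuclease, had a log2 fold change of 0.24 with a standard error of 0.15, and the groups overlapped. Pabpc1, the main cytoplasmic poly(A)-binding protein, had 379, 354 and 446 CPM in Celf1 AKO libraries, against 419, 410 and 453 CPM in Flox control libraries, a log2 fold change of -0.12.

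Among the 10 CCR4-NOT subunits 4 log2 fold changes were positive and 6 negative, with a median of -0.025, and the largest in size was -0.29 (Cnot3). Cnot3 stood at -0.53 with an edgeR adjusted p of 0.119 when Celf1 AKO replicate 3 was left out. The scaffold Cnot1 had 81.6, 74.0 and 81.0 CPM in Celf1 AKO libraries, against 95.6, 84.7 and 89.4 CPM in Flox control libraries. The nuclease Cnot8 had 31.3, 34.6 and 34.4 CPM in Celf1 AKO libraries, against 36.9, 37.7 and 40.8 CPM in Flox control libraries. Both genes were without overlap, with log2 fold changes of -0.19 and -0.20 and edgeR adjusted p-values of 0.472 and 0.459. Its paralog Cnot7, the alternative nuclease in the same position of the complex, had 50.8, 52.6 and 47.8 CPM in Celf1 AKO libraries, against 48.2, 38.8 and 42.0 CPM in Flox control libraries. Cnot7 overlapped between the groups through Celf1 AKO replicate 3 and Flox control replicate 1, with a log2 fold change of 0.23 and an adjusted p of 0.447. Cnot1, Cnot2, Cnot3 and Cnot7 share exon positions with genes on the opposite strand.

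Because Cnot7 and Cnot8 replace each other in the complex, their ratio was examined, together with those of 7 other pairs of paralogs, all chosen after the values were seen. The Cnot7 to Cnot8 ratio of FPKM was 0.877, 0.821 and 0.749 in Celf1 AKO libraries, against 0.704, 0.556 and 0.556 in Flox control libraries. Every Celf1 AKO library was above every control, and the mean log2 difference was 0.44. The Cnot6 to Cnot6l ratio, of the other nuclease position, was 1.77, 1.66 and 1.51 in Celf1 AKO libraries, against 1.33, 1.47 and 1.41 in Flox control libraries, a log2 difference of 0.23. The Zfp36l1 to Zfp36l2 ratio was 0.663, 0.666 and 0.428 in Celf1 AKO libraries, against 0.363, 0.283 and 0.283 in Flox control libraries, a log2 difference of 0.90. These 3 of the 8 ratios were without overlap. Cnot8 and Zfp36l1 were also without overlap as single genes, so their ratios are not separate from them. The share of other gene pairs without overlap was not computed. Each reached the smallest two-sided exact permutation p that 3 libraries against 3 allow, 0.1, which is 0.267 after Benjamini-Hochberg adjustment over the 8 pairs, so none passed. The pairs share their libraries, and the ratios are a description.

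**Figure D3:**
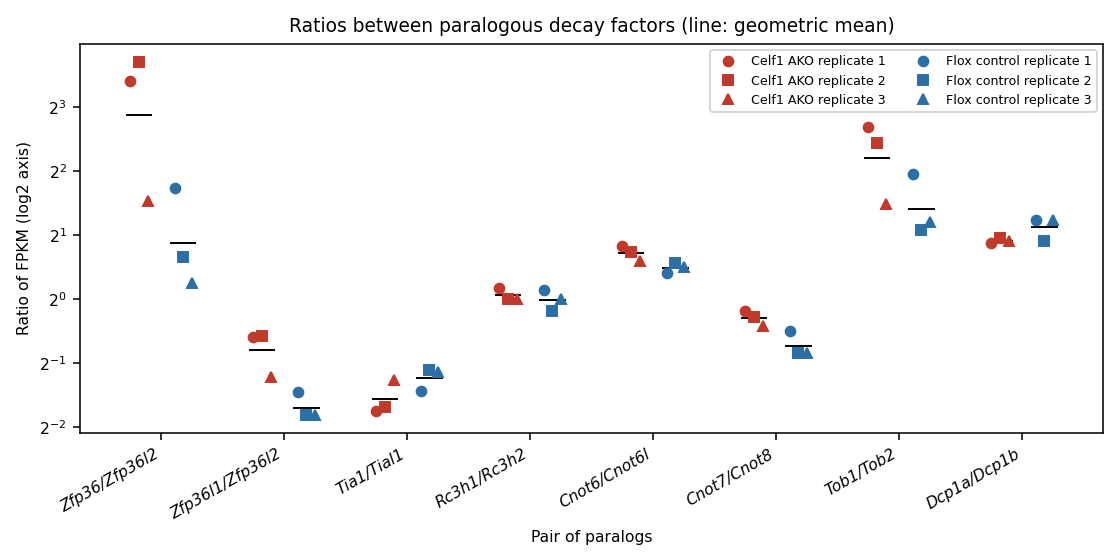
Ratio of FPKM between 2 paralogous decay factors (y axis, log2 scale) for 8 pairs, with Celf1 AKO in red left of Flox control in blue; each point is a library, marker shape gives the replicate number and lines are geometric means. The Zfp36l1/Zfp36l2, Cnot6/Cnot6l and Cnot7/Cnot8 ratios do not overlap between the groups, and the other 5 do.

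In the decapping and 5′-to-3′ group, 5 of 10 log2 fold changes were positive and the median was -0.032. Lsm1 (ENSMUSG00000037296; GRCm38 chromosome 8, 25785288 to 25803975, plus strand) is a subunit of the LSM ring that binds shortened tails and promotes decapping. It had 20.5, 24.6 and 24.1 CPM in Celf1 AKO libraries, against 32.9, 27.4 and 31.2 CPM in Flox control libraries. No Celf1 AKO library reached the lowest control. Its log2 fold change was -0.40 (standard error 0.13), with an unadjusted p of 0.0153 and an edgeR adjusted p of 0.302. The decapping enzyme Dcp2 had 18.7, 17.1 and 23.9 CPM in Celf1 AKO libraries, against 20.96, 24.9 and 28.6 CPM in Flox control libraries, with overlap and a log2 fold change of -0.32. Its activator Dcp1a was without overlap by a narrow margin, at 16.5 to 20.6 CPM in Celf1 AKO libraries and 20.7 to 21.2 CPM in Flox control libraries, a log2 fold change of -0.17. The exonucleases Xrn1 and Xrn2, the helicase Ddx6 and the scaffold Edc4, named after their values were seen, had log2 fold changes of 0.11, 0.049, -0.11 and 0.12.

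The exosome and the DIS3-family nucleases gave 5 positive and 6 negative log2 fold changes, with a median of -0.035. Exosc4, a subunit of the exosome core, had 10.7, 12.1 and 13.7 CPM in Celf1 AKO libraries, against 16.3, 16.2 and 14.4 CPM in Flox control libraries. No library crossed between the groups. The log2 fold change was -0.36 (standard error 0.15), with an unadjusted p of 0.0436 and an edgeR adjusted p of 0.373. Exosc7 and the catalytic subunit Dis3 had log2 fold changes of -0.27 and -0.20, with overlapping libraries. Exosc4 and Dis3 share exon positions with Oplah and Pibf1 on the opposite strand. Over the other 8 members of this group, log2 fold changes ran between -0.089 for Exosc2 and 0.13 for Dis3l2.

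In nonsense-mediated decay, 2 of 6 log2 fold changes were positive and the median was -0.12. Smg5 (ENSMUSG00000001415; GRCm38 chromosome 3, 88336260 to 88362338, plus strand) bridges phosphorylated UPF1 to decay enzymes. It had 40.3, 40.0 and 62.3 CPM in Celf1 AKO libraries, against 55.7, 63.3 and 60.6 CPM in Flox control libraries. The helicase Upf1 had 42.4, 41.9 and 62.4 CPM in Celf1 AKO libraries, against 51.4, 66.6 and 61.7 CPM in Flox control libraries. For both genes Celf1 AKO replicates 1 and 2 lay below every control, and replicate 3 lay among the controls. The log2 fold change of Smg5 was -0.33, with an edgeR adjusted p of 0.484, and that of Upf1 was -0.29, with 0.534. Without Celf1 AKO replicate 3, Smg5 stood at -0.58 with an adjusted p of 0.0426 and Upf1 at -0.51 with 0.0841. Upf1 shares exon positions with Cers1 on the opposite strand. Smg1, the kinase that phosphorylates UPF1, had 90.9, 88.3 and 97.5 CPM in Celf1 AKO libraries, against 93.7, 69.1 and 82.5 CPM in Flox control libraries, a log2 fold change of 0.17.

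**Figure D4:**
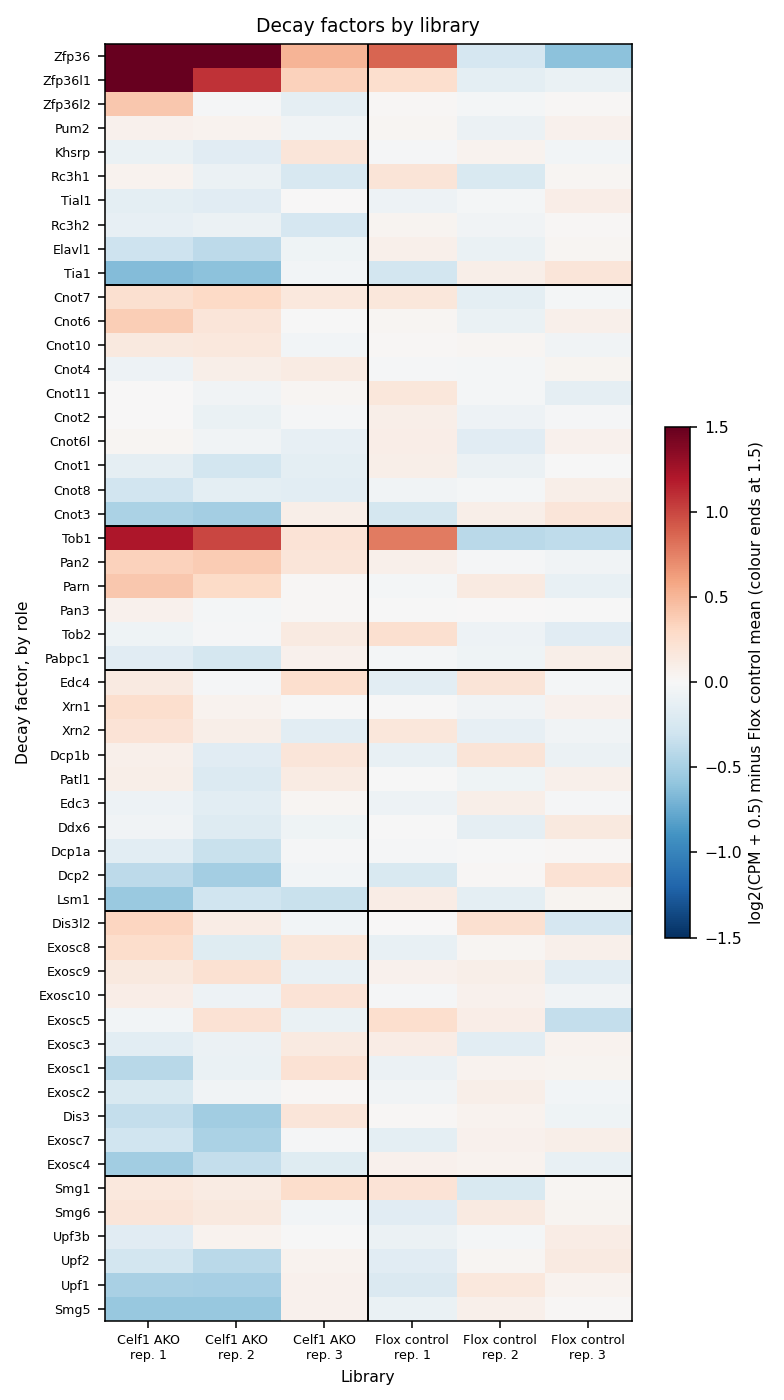
Log2(CPM + 0.5) of each decay factor minus its Flox control mean (colour, ending at 1.5 in both directions), with genes in rows by role and the 6 libraries in columns, Celf1 AKO left of Flox control. The rows of Zfp36, Zfp36l1 and Tob1 are red in Celf1 AKO replicates 1 and 2 and paler in replicate 3, and most other rows are pale throughout.

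How far Celf1 AKO replicate 3 decided these results was measured for the whole set. It lay within the range of the 3 controls for 31 of the 53 members (58.5%, against 45.9% of all genes tested). With that library left out, edgeR called 3 members: Zfp36 and Zfp36l1 higher and Smg5 lower in Celf1 AKO. The share of all genes called in that fit was 3.19%, with 1.43% higher and 1.76% lower. Leaving out any other single library gave 0 called members. With all 6 libraries DESeq2 called Zfp36 and Zfp36l1, both higher, beside 2.97% of all genes (2.07% higher and 0.902% lower). Without Celf1 AKO replicate 3 the groups did not overlap for 31 members, 10 higher and 21 lower (58.5%, against 41.8% of all genes, 19.3% higher and 22.6% lower). The 21 lower members included 5 of 10 RNA-binding regulators, 3 of 10 CCR4-NOT subunits, 4 of 10 decapping factors, 5 of 11 exosome and DIS3-family genes and 3 of 6 nonsense-mediated decay factors. The median log2 fold change of the members in that fit was -0.054, beside -0.020 for all genes.

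Levels per length set the machinery in proportion. The mean FPKM of a member ran between 1.76 and 315 in Celf1 AKO and between 1.73 and 147 in Flox control libraries, with medians of 8.52 and 8.58. The same 3 genes headed both groups. Zfp36 had 315 ± 198 FPKM in Celf1 AKO and 65.1 ± 33.3 FPKM in Flox control libraries (SD, n = 3 each). Tob1 had 244 ± 76.3 FPKM in Celf1 AKO and 144 ± 63.9 FPKM in Flox control libraries. Pabpc1 had 135 ± 22.4 FPKM in Celf1 AKO and 147 ± 12.9 FPKM in Flox control libraries, so that in the controls Pabpc1 and Tob1 did not differ beyond their spread. The CCR4-NOT subunits were far lower, with median levels of 9.53 FPKM in Celf1 AKO and 9.65 FPKM in Flox control libraries, and Dcp1b was the lowest member of all.

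**Figure D5:**
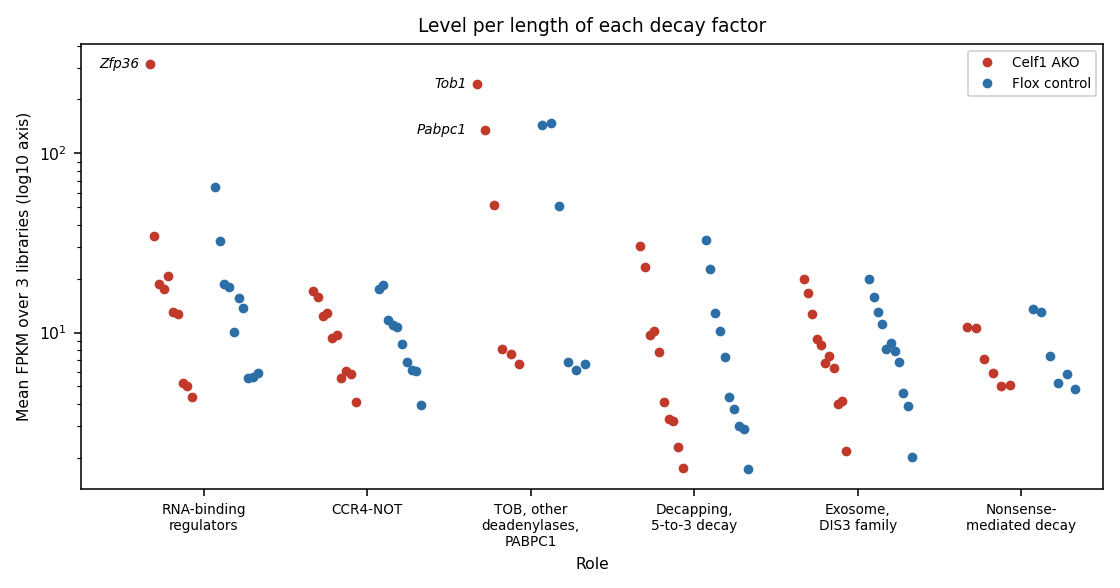
Mean FPKM of each decay factor over 3 libraries (y axis, log10 scale), by role, with Celf1 AKO in red left of Flox control in blue and the genes in the same order in both. The Celf1 AKO points of Zfp36 (315 FPKM), Tob1 (244 FPKM) and Pabpc1 (135 FPKM) are labelled, and the CCR4-NOT subunits all lie below 20 FPKM.

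Values of other quickly induced genes stood beside those of Zfp36, Zfp36l1 and Tob1. The mean log2(CPM + 0.5) of 20 immediate early and acute cAMP-response genes was 6.46, 6.42 and 5.10 in Celf1 AKO libraries, against 5.34, 4.54 and 4.57 in Flox control libraries. Of these 20 genes 19 had a positive log2 fold change, and edgeR called 0, with 15 higher at an unadjusted p under 0.05 (6.75% of all genes) and 8 called higher by DESeq2 (2.07% of all genes). Celf1 AKO replicates 1 and 2 were again highest, and Flox control replicate 1 lay above Celf1 AKO replicate 3, as it did for Zfp36 and Tob1 but not for Zfp36l1. The Schwann cell and endothelial markers given above had another order, with a higher summed level in Celf1 AKO replicate 3 than in replicate 1. The mean log2(CPM + 0.5) of the 6 epithelial markers was highest in Celf1 AKO replicates 1 and 2. For these markers Flox control replicate 2 lay above Celf1 AKO replicate 3. The part of any of these sets in the values of Zfp36, Zfp36l1 and Tob1 was not tested.

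DNA around the annotated starts of these 3 genes is printed because their values are the most variable among the members. RefSeq (GRCm38.p6) gave promoters for 44 members, 54 in all, and the 250 bases before each start were searched after the values were known. The letters TATAAA on the gene's strand occurred in 2 of the 54 (3.70%, against 7.59% of 32851 promoters), those of Zfp36l1 and Tob1. Both follow in the direction of transcription with that motif in capitals, together with TGACG in Tob1. They lie at chr12:80113014-80113263 on the minus strand and chr11:94211204-94211453 on the plus strand.
Zfp36l1: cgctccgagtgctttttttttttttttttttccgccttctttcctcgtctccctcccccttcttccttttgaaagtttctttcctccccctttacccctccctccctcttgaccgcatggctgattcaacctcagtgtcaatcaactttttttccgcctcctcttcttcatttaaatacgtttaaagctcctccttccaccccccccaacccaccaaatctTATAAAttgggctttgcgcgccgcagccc
Tob1: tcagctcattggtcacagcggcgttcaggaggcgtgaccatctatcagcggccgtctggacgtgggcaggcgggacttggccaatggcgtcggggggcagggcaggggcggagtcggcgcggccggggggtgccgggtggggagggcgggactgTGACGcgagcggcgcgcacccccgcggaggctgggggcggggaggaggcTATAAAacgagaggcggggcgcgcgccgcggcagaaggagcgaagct
The 5 bases TGACG, which make up part of a cAMP response element, were found on either strand in 11 of the 54 promoters (20.4%, against 17.8% of all). The full element TGACGTCA was in none of the 54, against 1.55% of all. The Zfp36 window lies before the RefSeq start but overlaps an exon of Zfp36 in GENCODE M21, so it is inside the gene as given above. It held a CArG box, the kind of site that serum response factor binds (1.85% of the member promoters, against 1.47% of all), and an EGR-type site, GCGNGGGCG (5.56%, against 4.70%). The CArG box is shown at chr7:28379267-28379296 and the EGR-type site at chr7:28379315-28379343, both on the minus strand, with the motif in capitals.
Zfp36 CArG box: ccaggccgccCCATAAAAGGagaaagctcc
Zfp36 EGR-type site: gagctacgccGCGGGGGCGcgtcccggaa
Motifs other than TATAAA were searched on both strands. A match describes these letters only, and no binding was measured.

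Of 65 other genes of mRNA decay, 63 were tested and 0 were called by edgeR. Their log2 fold changes were positive for 31 and negative for the rest, with a median of -0.00065. At an unadjusted p under 0.05, 3 were higher and 4 lower (11.1%, against 12.9% of all genes), and DESeq2 called 1 higher, against 2.07% of all genes. The 3 higher ones are relatives or partners of members. Btg2, an antiproliferative adaptor of the TOB/BTG family and also one of the 20 immediate early genes, had 644, 581 and 58.3 CPM in Celf1 AKO libraries, against 94.5, 35.6 and 26.9 CPM in Flox control libraries. Btg1 had 637, 754 and 340 CPM in Celf1 AKO libraries, against 346, 263 and 249 CPM in Flox control libraries. Pnrc1, known to bind the decapping complex, had 101, 94.8 and 63.9 CPM in Celf1 AKO libraries, against 66.3, 43.5 and 43.0 CPM in Flox control libraries.

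All 3 overlapped between the groups because Celf1 AKO replicate 3 lay below Flox control replicate 1. Their log2 fold changes were 3.03, 1.01 and 0.76, with edgeR adjusted p-values of 0.287, 0.287 and 0.293. Without Celf1 AKO replicate 3, Btg2 and Btg1 passed with adjusted p-values of 0.0315 and 0.0281 (1.43% of all genes were called higher in that fit), and Pnrc1 did not, with 0.0581. Ttc37, a scaffold of the SKI complex that feeds RNA to the exosome, was at most 12.8 CPM in Celf1 AKO libraries and at least 14.4 CPM in Flox control libraries. It did not overlap, and its log2 fold change was -0.41 with an adjusted p of 0.324.

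With Btg1, Btg2 and Btg3 added, the TOB/BTG family summed to 743, 665 and 335 FPKM in Celf1 AKO libraries, against 391, 239 and 228 FPKM in Flox control libraries. Tob1 was the largest part in every library, at 42.3%, 38.6% and 48.6% of the sum in Celf1 AKO and 55.6%, 44.6% and 47.0% in Flox control libraries. Btg2 made up 31.6%, 30.1% and 6.60% in Celf1 AKO libraries, against 8.22%, 5.65% and 4.43% in Flox control libraries. The lower share of Tob1 in Celf1 AKO replicates 1 and 2 thus stood beside a higher share of Btg2.

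The 20 mRNAs listed as known targets of AU-rich element decay were also read, since these are the mRNAs that the ZFP36 family acts on. Of the 20, 16 had a positive log2 fold change, with a median of 1.04, and edgeR called 0, with 10 higher and 1 lower at an unadjusted p under 0.05. Over all genes 6.75% were higher and 6.17% lower at that level. DESeq2 called 4, against 2.07% of all genes higher, and edgeR without Celf1 AKO replicate 3 called 6, against 1.43%, all of them higher. Fos and Junb are in both this list and that of the immediate early genes. Plk2, a polo-like kinase, had 35.3, 30.6 and 19.4 CPM in Celf1 AKO libraries, against 12.3, 15.1 and 9.11 CPM in Flox control libraries. It did not overlap, with a log2 fold change of 1.22, an edgeR adjusted p of 0.227 and a DESeq2 adjusted p of 0.00225.

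The transcription factor gene Myc had 81.2, 85.0 and 25.5 CPM in Celf1 AKO libraries, against 27.2, 19.4 and 13.7 CPM in Flox control libraries, and the angiogenic factor gene Vegfa had 851, 923 and 493 CPM in Celf1 AKO libraries, against 502, 312 and 340 CPM in Flox control libraries. Both overlapped through Celf1 AKO replicate 3 and Flox control replicate 1, with edgeR adjusted p-values of 0.267 and 0.286. Il6 was at most 1.62 CPM in Celf1 AKO libraries and 0.274 CPM in Flox control libraries, and all 3 Celf1 AKO libraries lay above all 3 controls. The mean log2(CPM + 0.5) of the 20 targets was 4.45, 3.91 and 3.07 in Celf1 AKO libraries, against 3.40, 2.92 and 2.68 in Flox control libraries. That is the order of libraries that Zfp36 itself had. Levels of mRNA do not separate synthesis from decay, and mRNA half-life was not measured.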

How the data were processed

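RNA of cold-exposed mouse inguinal fat was sequenced in 3 Celf1 AKO and 3 Flox control libraries. The authors deposited whole-number counts per Ensembl gene and, in a second table, FPKM values. HISAT2, RSEM 1.3.1 and the builds GRCm38 and mm10 are named in the submitters' processing notes; the sources used here state neither the annotation nor the strand setting, and overlapping and antisense genes cannot be separated (exons of 16 members overlap another gene in the table). The scale of the FPKM values followed the count totals to within 0.982%.

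Symbols, coordinates and untranslated regions came from GENCODE M21, which matched 16528 of 16627 identifiers. Counts were tested with edgeR 4.0.16 (TMM, filterByExpr, which left out 261 genes, robust quasi-likelihood, genotype as the only term), with Benjamini-Hochberg adjustment over all genes and a threshold of 0.05. CPM values use TMM-scaled library sizes, in which 1 CPM is 55.0 to 67.8 counts. Single values had two-sided exact permutation tests (scipy 1.17.1). DESeq2 1.42.0, limma 3.58.1, other scalings and filters, a block for the replicate number and leaving out each library were alternatives. No 2 libraries agreed within sampling noise. The labels do not say that each library is a separate mouse, so p-values measure the spread between libraries. The scripts were tested on simulated data.

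The members and lists were chosen with earlier results of these data known. Named were Celf1, the ZFP36 family, the 3 members of smallest p in each role, those with an absolute log2 fold change of at least 0.5 or among the 3 highest in FPKM, members called without 1 library, and the 4 genes of smallest p of each related list. Any other gene was named after its values were seen.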

Additional observations from a re-analysis of the deposited data

How the results depend on the processing

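Over all genes, edgeR called 2 higher and 0 lower. Higher calls numbered 0 with library size only, 344 with DESeq2, 0 with limma-voom, 6 with limma-voom and quality weights, 1 in each of the 3 fits to FPKM and 9 with the replicate block, and ran between 0 and 237 when 1 library was left out. Lower calls numbered 150 with DESeq2, 4 with limma-voom and quality weights, 3 with the replicate block, and 0 to 290 when 1 library was left out. Decay factors called higher numbered 2 with DESeq2 and 0 to 2 when 1 library was left out, and those called lower 0 to 1. Other decay genes called higher numbered 1 with DESeq2 and 0 to 2 when 1 library was left out, and AU-rich element targets 4 with DESeq2 and 0 to 6. The members' median log2 fold change ran between -0.054 and 0.021 when 1 library was left out. Members without overlap, 8 with all libraries, ran between 9 and 31 when 1 library was left out. There were 16 (30.2%, against 34.1% of all genes) without Flox control replicate 1, and 13 (24.5%, against 25.8%) when replicate 2 of that group was left out. An arm of 2 libraries overlaps less often by its construction; the other causes were not tested. Celf1 passed the threshold with DESeq2 (-1.19), limma-voom with quality weights (-1.25), the replicate block (-1.21) and without Celf1 AKO replicate 3 (-1.32), and its log2 fold change when 1 library was left out ran between -1.32 and -1.12. Over 28 named genes, 485 alternative values kept their direction and side of the threshold, 15 newly passed it, 0 lost it and 1 reversed. None of these genes passed the threshold in the main fit, so no call could be lost. The reversal was that of Zfp36l2, which ran between -0.037 (without Celf1 AKO replicate 1) and 0.21. The replicate block changed the call of no decay factor. Deviations of same-numbered libraries correlated at 0.0818, -0.0496 and 0.213, so the numbers were not taken as pairs. Counts of overlap and scores use no test, so test alternatives gave no value for them.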
